A study of Mus musculus with 6 samples.

Results

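The genes described here encode parts of the neuronal cytoskeleton and of the growth cone, the motile tip of a growing axon: Nefl, Nefm, Nefh, Ina, Gap43, Tubb3, Stmn2, Uchl1, Map1b and Dpysl3. They are 10 of the 22246 genes in the expression table and were paired to it by Ensembl identifier. The set was chosen on its FPKM values in these same libraries, the contrast described here, so the differences between the groups below are a description and carry no test. Of the 10 genes, 7 averaged 1 FPKM or more across the 6 libraries (FPKM are fragments per kilobase of gene, corrected for sequencing depth) and entered the fit across genes, and 3 lay under that filter.

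The libraries came from HL-1, an established cell line that was derived from an atrial tumour of mice. It is labelled as heart of strain C57BL/6. A control short hairpin RNA (shRNA) was given to the cells of 3 libraries and an shRNA against Smyd4, a gene of the SET and MYND domain family, to those of the other 3. The labels give no time point. They also do not say that replicates were separate cultures, so every p-value here reflects only how much these libraries varied, and that variation may be technical. Smyd4 mRNA itself stood at 12.9 ± 0.539 FPKM (SD, n = 3) in control and 12.3 ± 0.348 FPKM (SD, n = 3) in the other group (limma, Benjamini-Hochberg adjusted p = 0.173; exact two-sided permutation p = 0.2, with 0.1 the smallest p this design allows). These values therefore do not show that the target mRNA was lower, as the label would have it. The second group is called the libraries labelled Smyd4 shRNA, or the labelled libraries. Every direction below refers to that label only. Libraries held at least 20755856 to 26387606 reads assigned to genes, recovered from the deposited values.

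Several defining contractile markers of an atrial cardiomyocyte were at or near 0 in all 6 libraries. Myh6, the main cardiac myosin heavy chain of adult mice, averaged 0.00207 FPKM in control and 0.0127 FPKM in labelled libraries. Actc1, cardiac actin, had 0 to 2 reads per library, and Myl7, the atrial myosin light chain, had 0 in the controls and 0 to 2 in the labelled libraries. Tnnt2, cardiac troponin T, was present and rose from 7.11 to 11.7 FPKM (limma, adjusted p = 6.22e-06). Other cardiac genes were present too, with Gja1 (connexin 43) at 146 and 145 FPKM, Gata4 at 8.09 and 8.88 FPKM and Nkx2-5 at 3.57 and 7.68 FPKM in control and labelled libraries. Cell type markers are returned to at the end.

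Neurofilaments are the intermediate filaments of axons. They are built from a light (Nefl), a medium (Nefm) and a heavy (Nefh) subunit together with alpha-internexin (Ina), and their amount sets the calibre of large axons. The growth cone adds membrane and regulates actin and microtubules as it advances: Gap43 is a membrane-bound phosphoprotein of the growth cone, Tubb3 is the beta-tubulin isotype long used to stain neurons, Stmn2 is a stathmin that binds free tubulin and is known for its role in axon regrowth, Map1b is a microtubule-associated protein of growing axons, Dpysl3 belongs to the CRMP family (collapsin response mediator proteins), and Uchl1 (PGP9.5) is an abundant neuronal ubiquitin hydrolase. Many of these genes are also expressed, at lower levels, in immature or transformed cells outside the nervous system.

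In the labelled libraries 8 of the 10 genes lay below every control library, and none lay above. The difference was not even across the set. Nefl, Nefm, Gap43, Stmn2, Uchl1 and Tubb3, 6 genes in all, stood more than 4-fold lower by mean FPKM, while Map1b was 19.6% and Dpysl3 6.49% lower, and Nefh and Ina had at most 1 read in any library. Over all 11325 genes tested by limma, 48.3% passed an adjusted p of 0.05, with 23.3% lower and 25.1% higher in the labelled libraries. For 27.6% of the tested genes the labelled libraries all lay below the controls. Each of the 7 tested genes of the set was among those lower, but the set was assembled on this contrast and the count supports nothing beyond its description. The median difference of these 7 was -2.03 on the log2(FPKM + 0.5) scale, against 0.02 for all tested genes.

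**Figure D1:**
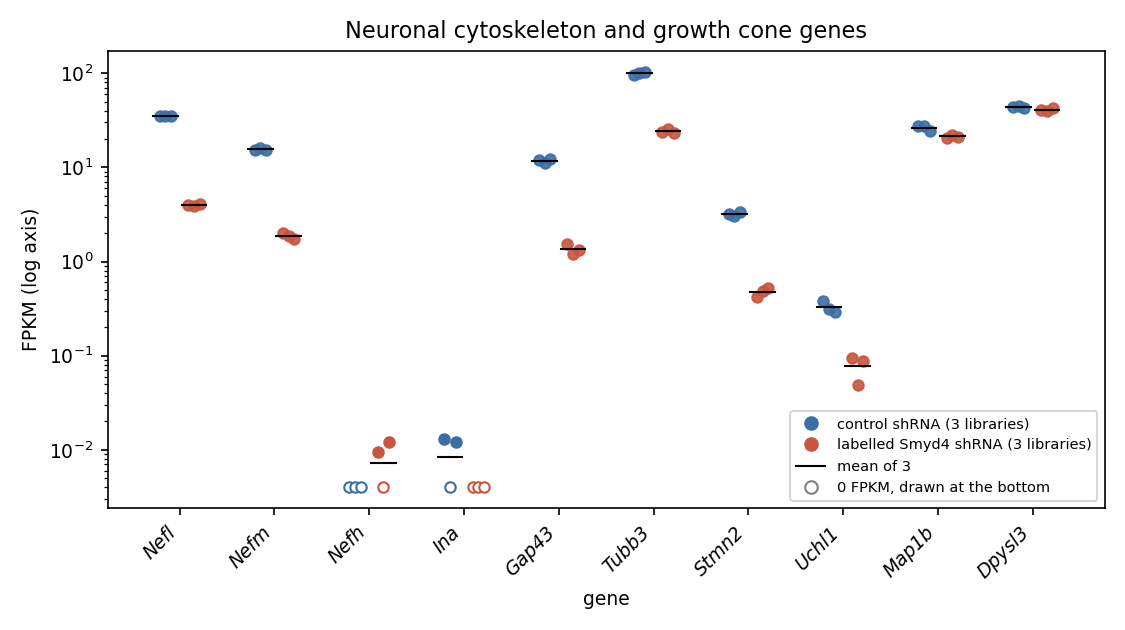
FPKM (log axis) of the 10 genes in each of the 6 libraries, with blue points for control shRNA, red points for the libraries labelled Smyd4 shRNA, a black line at the mean of 3 and open points for 0. The group means of Nefl, Nefm, Gap43, Tubb3, Stmn2 and Uchl1 differ by more than 4-fold. Map1b and Dpysl3 lie close together, and Nefh and Ina rest on single reads.

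Nefl (ENSMUSG00000022055; GRCm38 chromosome 14, 68083863 to 68089095, forward strand, protein coding) had the widest separation of the set on the log2 scale. The controls stood at 35.5, 35.4 and 35.1 FPKM and the labelled libraries at 3.97, 3.91 and 4.07 FPKM. The groups were far apart, and within each group the libraries differed by little. The mean was 8.86-fold lower, a difference of -2.997 on the log2(FPKM + 0.5) scale with a standard error of 0.03, which ranked 16 among all tested genes ordered from the most negative difference. Behind these levels lay 2835 to 3008 reads in the control and 285 to 351 reads in the labelled libraries. By FPKM, Nefl ranked 1750 of 22246 genes in the control mean and 8452 in the labelled mean.

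Nefm (ENSMUSG00000022054; chromosome 14, 68082590 to 68124846, reverse strand, protein coding) has an annotated span that contains all of Nefl, and it runs in the opposite direction. Its levels were 15.4, 16.2 and 15.1 FPKM in the control and 1.99, 1.89 and 1.75 FPKM in the labelled libraries, again without overlap. The mean was 8.31-fold lower (log2 difference -2.76, standard error 0.05), resting on 2126 to 2219 and 209 to 300 reads. The annotated exons of both genes share 1108 bases, which is 32.8% of the exonic length of Nefl and 19.2% of that of Nefm. The sources used here do not say whether counting used strand, so reads in that stretch cannot be assigned to either gene with certainty. The ratio of Nefl to Nefm FPKM was 2.31, 2.19 and 2.32 in the controls, and 2.001, 2.07 and 2.33 in the labelled group. These ratios overlapped, at 2.27 ± 0.0738 (SD, n = 3) and 2.13 ± 0.175 (SD, n = 3), so the light and medium subunit mRNAs were lower by about the same factor.

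The other neurofilament subunits were not detectable at a usable depth. Nefh (ENSMUSG00000020396; chromosome 11, 4938754 to 4948064, reverse strand) had 0 reads in each control library and 1, 0 and 1 in the labelled libraries. Ina (ENSMUSG00000034336; chromosome 19, 47014698 to 47025327, forward strand) had 1, 0 and 1 reads in the control and 0 in each labelled library. A count of 0 allows up to 3 reads per library, which corresponds to 0.0287 to 0.0363 FPKM for Nefh and to 0.0354 to 0.0447 FPKM for Ina, counting error only. All values were under these limits, and no fold is given. The exons of Ina share 456 bases (14.1% of its length) with Nt5c2 on the opposite strand. The cells thus carried mRNA of the light and medium subunits with at most single reads of the heavy subunit and of alpha-internexin.

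Gap43 (ENSMUSG00000047261; chromosome 16, 42248442 to 42340651, reverse strand, protein coding) showed a separation close to that of the neurofilament pair. Control libraries held 11.96, 11.1 and 12.3 FPKM and labelled libraries 1.53, 1.20 and 1.33 FPKM. No labelled library came near a control library, and the mean was 8.71-fold lower (log2 difference -2.73, standard error 0.07). It rested on 400 to 476 reads in the control and 42 to 61 reads in the labelled libraries.

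Stmn2 (ENSMUSG00000027500; chromosome 3, 8509360 to 8561606, forward strand, protein coding) was expressed at a lower level. It stood at 3.18, 3.05 and 3.36 FPKM in control and 0.424, 0.487 and 0.526 FPKM in the labelled libraries. With 405 to 477 reads against 61 to 69, the groups did not overlap, and the mean was 6.67-fold lower. On the log2(FPKM + 0.5) scale the difference was -1.92 with a standard error of 0.08. The pseudocount compresses a gene at this level: the logarithm of the ratio of means was -2.74, and edgeR on recovered reads gave -2.75.

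Tubb3 (ENSMUSG00000062380; chromosome 8, 123411424 to 123422015, forward strand, protein coding) had the highest FPKM of the set in the control libraries. Its levels were 96.2, 99.8 and 104 FPKM in the control and 23.7, 25.3 and 23.4 FPKM in the labelled libraries. The mean was 4.15-fold lower (log2 difference -2.03, standard error 0.04) with 4300 to 4934 against 904 to 1193 reads. Even so, the labelled libraries kept Tubb3 at rank 2607 of 22246 genes by FPKM, from rank 545 in the control libraries.

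Uchl1 (ENSMUSG00000029223; chromosome 5, 66676091 to 66687234, forward strand, protein coding) lay under the filter. It stood at 0.384, 0.310 and 0.290 FPKM in the control libraries, or 15, 12 and 12 reads. The labelled libraries held 0.0938, 0.0485 and 0.0888 FPKM, or 4, 2 and 3 reads. The groups did not overlap, but the sums were only 39 and 9 reads, and scaled for depth the control level was 4.28-fold the labelled level with a 95% exact interval of 2.04 to 10.1 for counting error only. The authors' deposited table lists a log2 fold change of -0.58 for Uchl1, a smaller change than these reads give. Of its exonic length, 295 bases (18.1%) are shared with the antisense gene Uchl1os, and without strand information those reads cannot be told apart.

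Map1b and Dpysl3 stood apart from the rest of the set. Map1b (ENSMUSG00000052727; chromosome 13, 99421464 to 99516602, reverse strand, protein coding) had 27.7, 27.7 and 24.1 FPKM in the control and 20.6, 22.3 and 21.1 FPKM in the labelled libraries. The nearest libraries were 24.1 and 22.3 FPKM, so the groups were separated by little, with a log2 difference of -0.31 and a standard error of 0.06. Dpysl3 (ENSMUSG00000024501; chromosome 18, 43320979 to 43438286, reverse strand, protein coding) had 43.9, 44.3 and 43.1 FPKM against 41.1, 39.3 and 42.5 FPKM. Its groups were closer still, with a log2 difference of -0.10 and a standard error of 0.03. Both rest on 5166 to 7857 reads per library. In the labelled libraries Dpysl3 and not Tubb3 had the highest FPKM of the set, because Tubb3 was lower and Dpysl3 was nearly level.

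Ordered by their control FPKM, the genes ran Tubb3, Dpysl3, Nefl, Map1b, Nefm, Gap43, Stmn2, Uchl1, Ina, Nefh. In the control libraries no library of a gene overlapped that of its neighbour in this order, except Ina and Nefh, which are at single reads. In the labelled libraries the order was Dpysl3, Tubb3, Map1b, Nefl, Nefm, Gap43, Stmn2, Uchl1, Nefh, Ina, and the genes at single reads again could not be ordered. Nefl thus stood below Map1b, and Tubb3 below Dpysl3.

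The authors' deposited table gives log2 fold changes of -3.09 for Nefl, -2.97 for Nefm, -2.78 for Gap43, -2.03 for Tubb3 and -2.48 for Stmn2. For Map1b and Dpysl3 the authors' deposited table lists -0.31 and -0.10.

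The start regions of 4 of the 10 genes (Tubb3, Uchl1, Map1b and Ina) are in the RefSeq table for GRCm38.p6, as are those of Tubb5, Tubb2a and Tubb4b. Those of the 4 genes are shown because only these of the set were available, so Nefl, Nefm, Gap43 and Stmn2 have no window. Tubb3 and Uchl1 stood over 4-fold lower, Map1b 19.6% lower and Ina at single reads. Tubb5, a beta-tubulin that rose, is shown beside them. Tubb2a, which fell, and Tubb4b, which rose, are not printed. Each printed window runs 5′ to 3′ on the gene's strand. It lies upstream of both the RefSeq start and the annotated gene start (GENCODE M21), so that no base of the annotated gene itself is shown. The Ina window lies within the annotated span of Nt5c2 (46883317 to 47015153), which runs on the opposite strand and stood at 11.7 and 12.7 FPKM. Capitals mark 4 motifs on either strand. They are the TATA box, spelled TATAAA, the CCAAT box, the GC box, spelled GGGCGG, and the AP-1 site, spelled TGANTCA. The E-box, spelled CANNTG, was searched too and is not capitalised.
Tubb3, chr8:123411303-123411423, forward: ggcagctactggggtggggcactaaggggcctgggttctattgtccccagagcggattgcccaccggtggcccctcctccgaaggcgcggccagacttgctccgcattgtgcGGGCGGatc
Uchl1, chr5:66675871-66676090, forward: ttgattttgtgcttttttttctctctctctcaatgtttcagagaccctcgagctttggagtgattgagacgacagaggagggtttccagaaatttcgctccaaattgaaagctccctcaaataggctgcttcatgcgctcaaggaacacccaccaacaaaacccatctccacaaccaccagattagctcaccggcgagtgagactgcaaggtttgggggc
Map1b, chr13:99516603-99516852, reverse: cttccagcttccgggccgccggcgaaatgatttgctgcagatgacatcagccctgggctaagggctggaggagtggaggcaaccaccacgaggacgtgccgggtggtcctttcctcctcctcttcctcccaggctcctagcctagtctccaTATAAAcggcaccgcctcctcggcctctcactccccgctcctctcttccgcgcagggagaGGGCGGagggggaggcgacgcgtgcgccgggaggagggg
Ina, chr19:47014431-47014680, forward: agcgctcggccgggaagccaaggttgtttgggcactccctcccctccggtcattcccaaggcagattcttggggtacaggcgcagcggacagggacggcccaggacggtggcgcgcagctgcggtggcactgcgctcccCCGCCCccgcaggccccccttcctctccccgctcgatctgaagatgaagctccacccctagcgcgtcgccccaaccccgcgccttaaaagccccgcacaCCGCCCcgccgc
Tubb5, chr17:35838307-35838551, reverse: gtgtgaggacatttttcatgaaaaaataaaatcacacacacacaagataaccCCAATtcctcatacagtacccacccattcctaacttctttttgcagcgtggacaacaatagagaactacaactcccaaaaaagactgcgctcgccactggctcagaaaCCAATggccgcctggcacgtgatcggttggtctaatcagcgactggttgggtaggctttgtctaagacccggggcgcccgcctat
In the 250 bases before the RefSeq start, Tubb3 had 2 GC boxes and 1 CCAAT box, of which the 121 bases printed hold 1 GC box. Map1b had 1 TATA box, 1 GC box and 1 E-box, and Ina had 2 GC boxes and 1 E-box. Uchl1 had none of the 5 motifs. Tubb5 had 2 CCAAT boxes and 1 E-box. Tubb2a had 1 TATA box, 2 GC boxes and 1 E-box, and Tubb4b had 5 CCAAT boxes, 1 GC box and 1 E-box. No matches overlapped each other in the printed windows. Among 32851 RefSeq start regions of this length, 12.4% held a TATA box, 33.8% a CCAAT box, 32.7% a GC box, 6.75% an AP-1 site and 66.2% an E-box. GC content was 68.0% for Tubb3, 66.4% for Map1b, 70.8% for Ina and 48.8% for Uchl1, against a median of 52.4%. A match describes letters in the window and does not show a used site.

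The lists below give the relatives and partners of these genes. They were fixed by function, not by how they moved, but with earlier results of these data known. Counts come from the limma fit over all tested genes, with adjusted p of 0.05 as the threshold, and are to be read against the shares of 23.3% lower and 25.1% higher over all genes. Together the 12 lists held 182 genes, of which 119 were tested, and 24 rose, 54 fell and 41 did not pass, with a median difference of -0.08.

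**Figure D2:**
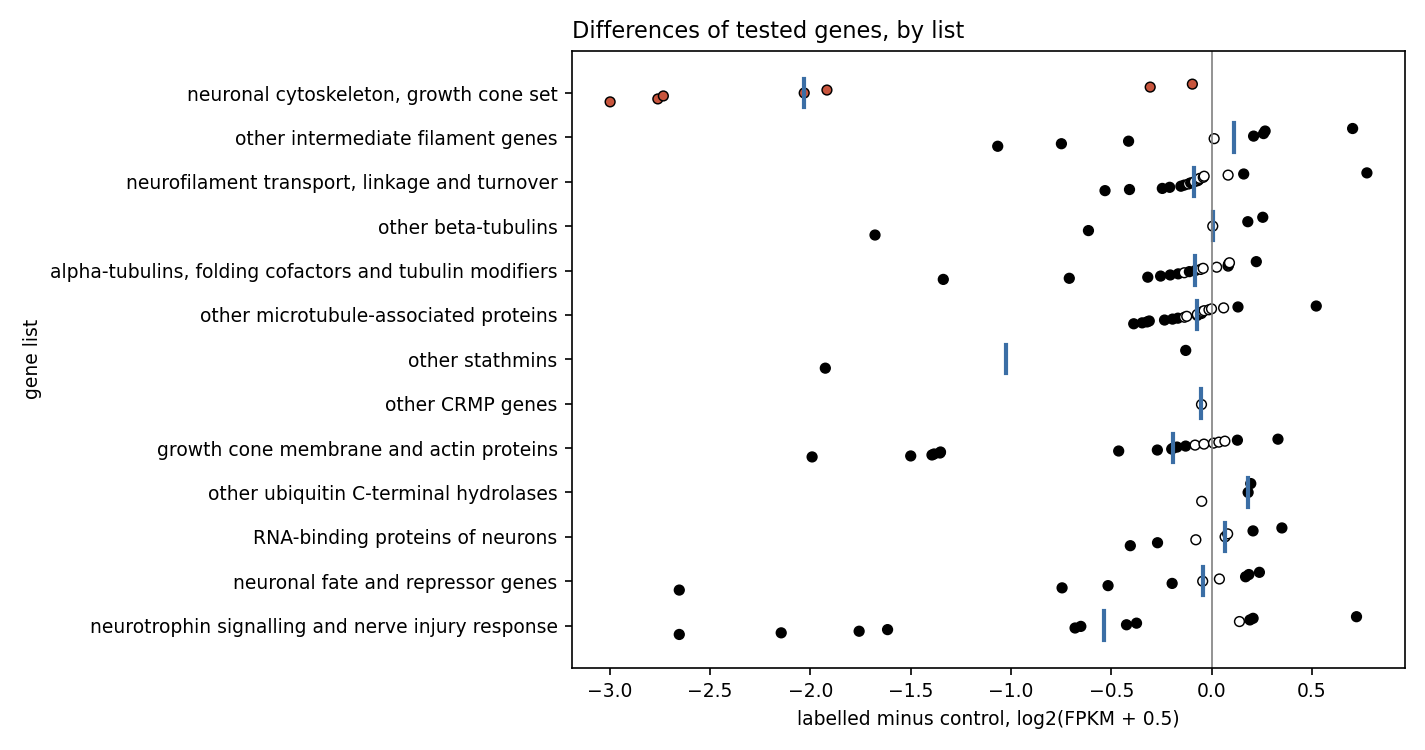
Difference (labelled minus control libraries) on the log2(FPKM + 0.5) scale for each tested gene of the set and of the 12 lists. Filled black points passed an adjusted p of 0.05 in limma, open points did not, red points are the 7 tested genes of the set, which carry no test, and blue bars are medians. The set runs from -2.997 (Nefl) to -0.10 (Dpysl3), while list medians lie between -1.03 (other stathmins) and 0.18 (other ubiquitin C-terminal hydrolases).

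Other intermediate filament genes moved in both directions while Nefl and Nefm were low. Of 8 tested, 4 rose, 3 fell and 1 did not pass, with a median difference of 0.11. Vim (vimentin), by far the most abundant, rose from 1079 to 1298 FPKM (limma, adjusted p = 9.09e-05), and the keratin Krt19 rose from 53.3 to 87.1 FPKM (limma, adjusted p = 5.81e-07). Nes (nestin), an intermediate filament of neural and muscle progenitors, fell from 124 to 73.8 FPKM (limma, adjusted p = 1.13e-06). Des (desmin), the muscle filament, fell from 137 to 102 FPKM (limma, adjusted p = 3.44e-06). In both groups Nefl stood far below vimentin.

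Genes for neurofilament transport, linkage and turnover had 17 tested members, of which 2 rose, 7 fell and 8 did not pass (median -0.09). Cdk5r1, an activator of the kinase Cdk5, rose from 1.91 to 3.61 FPKM (limma, adjusted p = 3.28e-05), and the kinesin light chain Klc1 rose from 55.2 to 61.7 FPKM (limma, adjusted p = 0.00396). The spectraplakins, which link filaments to microtubules and actin, fell: Macf1 from 18.8 to 12.9 FPKM (limma, adjusted p = 8.72e-05) and Dst from 15.6 to 11.7 FPKM (limma, adjusted p = 0.00117).

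Tubb3 was not the only beta-tubulin that was lower. Of 5 other tested genes, 2 fell, 2 rose and 1 did not pass (median 0.01). Tubb2b, an isotype of developing brain, fell from 104 to 32.1 FPKM (limma, adjusted p = 4.91e-08) and Tubb2a from 139 to 90.9 FPKM (limma, adjusted p = 6.85e-06). The broadly expressed Tubb4b rose from 225 to 268 FPKM (limma, adjusted p = 0.000736) and Tubb5 from 518 to 587 FPKM (limma, adjusted p = 0.00108). Tubb6 stood at 183 and 184 FPKM (limma, adjusted p = 0.892). These genes are close in sequence, so reads may have been split between them in counting, which is uncertain.

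FPKM is per length, so the isotypes can be set side by side. The summed FPKM of the beta-tubulin genes was 1270 ± 32.5 (SD, n = 3) in control and 1187 ± 25.2 (SD, n = 3) in the labelled libraries. Tubb3 made up 7.62%, 8.04% and 7.98% of it in the controls, against 1.95%, 2.16% and 1.99% in the labelled libraries. The groups did not overlap, at 7.88 ± 0.229% and 2.03 ± 0.110%. The share of Tubb2b was 8.18% and 2.71%, and that of Tubb2a 10.98% and 7.66%. Tubb5 made up 40.8% and 49.5%, Tubb4b 17.7% and 22.6%, and Tubb6 14.4% and 15.5%. In recovered reads in place of FPKM, which weighs longer genes more, the share of Tubb3 was 5.98% and 1.46%.

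**Figure D3:**
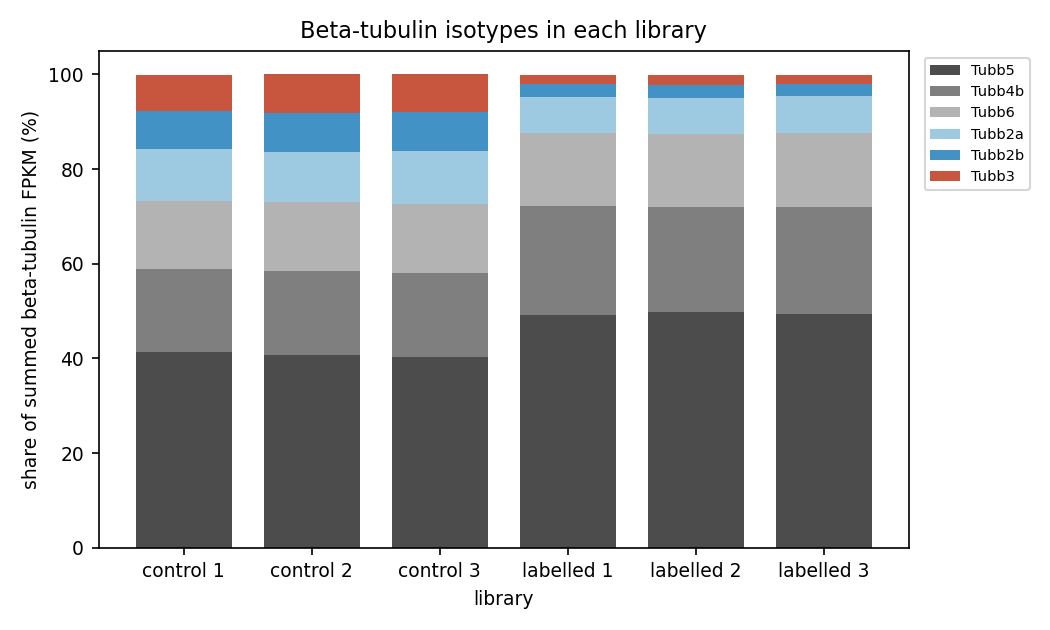
Share of each beta-tubulin isotype in the summed beta-tubulin FPKM, in percent, for each of the 6 libraries, as stacked bars (isotypes under 0.1% not drawn). Tubb3, at the top of each bar, takes 7.62% to 8.04% in the control libraries and 1.95% to 2.16% in the labelled libraries.

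Alpha-tubulins, folding cofactors and tubulin modifiers had 17 tested members, of which 8 fell, 2 rose and 7 did not pass (median -0.08). Tuba1a, the alpha-tubulin of developing neurons, fell from 650 to 397 FPKM (limma, adjusted p = 6.32e-07), and Vash1, a tubulin-modifying peptidase, fell from 1.75 to 0.390 FPKM (limma, adjusted p = 6.72e-05). Without any 1 of the control libraries the mean of Vash1 drops under the filter. Tuba4a rose from 56.2 to 65.6 FPKM (limma, adjusted p = 0.00117), and 1379 of its exonic bases (37.3%) are shared with Stk16 on the opposite strand. The chaperonin subunit Tcp1 rose from 73.9 to 78.4 FPKM (limma, adjusted p = 0.03). That call is lost without control replicate 1 or 2, or without labelled replicate 1 or 3 (limma, adjusted p from 0.0649 to 0.107). Without control replicate 1 or 2 or labelled replicate 1, only 1 gene of the list rose, and without control replicate 1 or 3, 5 fell.

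Other microtubule-associated proteins had 20 tested members, of which 7 fell, 2 rose and 11 did not pass (median -0.07). Mapre1, which tracks growing microtubule plus ends, fell from 37.9 to 28.8 FPKM (limma, adjusted p = 1.86e-05), and Map7d1 fell from 71.2 to 55.9 FPKM (limma, adjusted p = 1.98e-05). Mtcl1 rose from 7.88 to 11.5 FPKM (limma, adjusted p = 1.65e-05). Map1a, the relative of Map1b, rose from 18.5 to 20.3 FPKM (limma, adjusted p = 0.0207), the direction opposite to that of Map1b. That call is lost without control replicate 3 or without labelled replicate 1 or 3 (limma, adjusted p from 0.0517 to 0.0623), and in each of these 3 fits 1 gene of the list rose. edgeR on recovered reads called 11 of the list lower. Map2, the dendritic relative, stood at 1.19 and 0.210 FPKM and was not tested, a gene named after its values were seen.

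The other stathmins numbered 2 tested genes, both lower (median -1.03). Stmn4 fell from 2.08 to 0.182 FPKM (limma, adjusted p = 7.53e-06), and without any 1 of the control libraries its mean drops under the filter. Stmn1, the ubiquitous stathmin, fell from 106 to 96.9 FPKM (limma, adjusted p = 0.0306). That call is lost with no filter (adjusted p = 0.0745) and without control replicate 1 or 3 or labelled replicate 2 or 3 (limma, adjusted p from 0.0687 to 0.0870). Of the list, 0 genes were then called without control replicate 1 or 3, and 1 was called without control replicate 2, without labelled replicate 2 or 3 or with no filter. Of the CRMP relatives of Dpysl3, only Dpysl2 was tested, at 15.2 and 14.6 FPKM (limma, adjusted p = 0.457). Of 3 tested ubiquitin C-terminal hydrolases related to Uchl1, 2 rose and 1 did not pass: Uchl3 rose from 45.4 to 52.1 FPKM (limma, adjusted p = 0.0012) and Bap1 from 17.2 to 19.5 FPKM (limma, adjusted p = 0.00247). Neither shares the direction of the few Uchl1 reads.

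Among growth cone membrane and actin proteins, the partners of Gap43, 12 of 19 tested fell, 2 rose and 5 did not pass (median -0.19). Marcks, a membrane-bound protein kinase C substrate related in role to Gap43, fell from 72.2 to 27.2 FPKM (limma, adjusted p = 4.31e-08), and its relative Marcksl1 fell from 24.6 to 8.36 FPKM (limma, adjusted p = 2.58e-07). Fez2, related to a kinesin adaptor, rose from 27.5 to 34.7 FPKM (limma, adjusted p = 1e-04). Ncam1, the neural cell adhesion molecule, rose from 8.78 to 9.65 FPKM (limma, adjusted p = 0.0446). That call is lost with no filter (adjusted p = 0.0848) and without control replicate 1 or 3 or labelled replicate 1 or 2 (limma, adjusted p from 0.0729 to 0.135), where 1 gene of the list rose. Chosen after values were seen, Basp1, the third of the Gap43-like membrane proteins, fell from 135 to 52.4 FPKM (limma, adjusted p = 4.32e-07), the adhesion molecule L1cam from 3.58 to 0.529 FPKM (limma, adjusted p = 1.35e-06) and the actin-binding Dbn1 from 20.9 to 7.73 FPKM (limma, adjusted p = 6.09e-07).

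**Figure D4:**
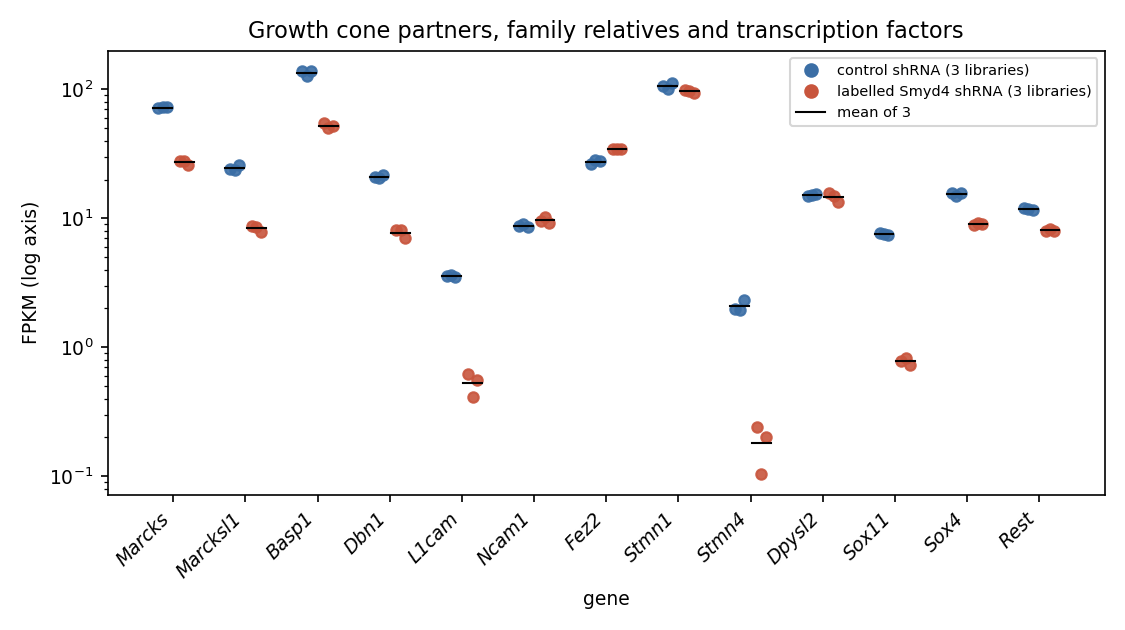
FPKM (log axis) of growth cone partners of Gap43, relatives of Stmn2 and Dpysl3, and 3 transcription factors, in each of the 6 libraries, with a black line at the mean of 3. Marcks, Marcksl1, Basp1, Dbn1, L1cam, Stmn4 and Sox11 are far lower in the labelled libraries, while Ncam1, Stmn1 and Dpysl2 lie close together between groups.

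Of 9 tested neuronal fate and repressor genes, 4 fell, 3 rose and 2 did not pass (median -0.04). Sox11, a transcription factor of newborn neurons, fell from 7.52 to 0.776 FPKM (limma, adjusted p = 2.54e-08), a log2 difference of -2.65, close in size to those of Nefm and Gap43. Sox4, its relative, fell from 15.4 to 8.99 FPKM (limma, adjusted p = 1.69e-06). Rest, the repressor of neuronal genes in non-neuronal cells, fell from 11.8 to 8.07 FPKM (limma, adjusted p = 8.91e-06), the same direction as the neuronal genes. Its co-repressor Rcor1 rose from 15.0 to 16.9 FPKM (limma, adjusted p = 0.00153), and Id2 rose from 15.0 to 17.8 FPKM (limma, adjusted p = 0.00436).

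Neurotrophin signalling and nerve injury response genes had 12 tested members, of which 8 fell, 3 rose and 1 did not pass (median -0.54). Sprr1a, which is induced in injured neurons, fell from 13.3 to 2.61 FPKM (limma, adjusted p = 2.54e-08), and Sox11 is in this list too. Maged1 rose from 80.4 to 91.8 FPKM (limma, adjusted p = 0.000865). RNA-binding proteins of neurons divided, with 2 of 7 tested lower, 2 higher and 3 not passing (median 0.07). Ptbp1 rose from 63.5 to 81.1 FPKM (limma, adjusted p = 5.70e-05), Tardbp from 41.8 to 48.3 FPKM (limma, adjusted p = 0.000266), Rbfox2 fell from 53.2 to 44.0 FPKM (limma, adjusted p = 4.81e-05) and Celf4 from 2.50 to 1.77 FPKM (limma, adjusted p = 0.00669). The product of Tardbp is known to bind the human STMN2 transcript. Some of these genes share exons with a neighbour: 54.6% of the exonic length of Sox4 with Gm26735, 26.2% of that of Tuba1a with Gm49450 and 23.3% of that of Tardbp with Masp2, so their values may hold reads of both.

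The tested genes outside the set with the profile most like that of Nefl were sought by the root mean square distance between values of log2(FPKM + 0.5), each minus the gene's own control mean, over the 6 libraries. Cebpd, a transcription factor, came first at 0.0565, followed by the potassium channel Kcnj2 at 0.0680 and the collectin Colec12 at 0.118. For comparison, Nefm lay at 0.179 and Gap43 at 0.206 from Nefl. Cebpd was 8.75-fold lower in the labelled libraries by mean FPKM, near the 8.86-fold of Nefl. The pseudocount compresses Kcnj2 and Colec12, whose means were 49.2-fold and 29.4-fold lower.

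Markers of other cell types were summed in each library. The summed FPKM of neuron and synapse markers was 23.4 to 25.2 in the control and 22.8 to 23.6 in the labelled libraries. These sums were over 10 of 16 markers, of which 4 reached 1 FPKM and were tested. Syn1 rose from 4.40 to 5.57 FPKM (limma, adjusted p = 0.00338). Stx1a fell from 4.27 to 3.49 FPKM (limma, adjusted p = 0.019) and Rab3a from 3.67 to 2.91 FPKM (limma, adjusted p = 0.0119). Vamp2, the largest part of the sum at 11.1 and 10.6 FPKM in control and labelled libraries, did not pass (limma, adjusted p = 0.292). The defining synaptic vesicle genes Syt1 and Syp were under 1 FPKM in both groups and were not tested. Syt1 was lower without overlap, at 0.222 and 0.0260 FPKM, with 33 to 55 and 3 to 7 reads. Syp stood at 0.0238 and 0.0281 FPKM. Glial markers summed to 1.89 to 1.97 and 1.75 to 2.17 FPKM, with none of 7 measured at 1 FPKM. Neuroendocrine markers summed to 187 to 200.6 and 63.0 to 65.6 FPKM, of which the peptide gene Cck alone was 135 and 2.49 FPKM. The other tested neuroendocrine marker, Cpe, stood at 60.2 and 61.1 FPKM (limma, adjusted p = 0.648). Snap25, Chga and Sox10 were among the listed markers that had no measured value under that name, so they entered no sum.

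Skeletal muscle markers went the same way as the set: 5 of 5 tested fell, and the sum was 93.2 to 95.4 FPKM in the control and 22.3 to 23.1 FPKM in the labelled libraries, without overlap. Chrna1, a subunit of the muscle acetylcholine receptor, fell from 49.9 to 9.59 FPKM (limma, adjusted p = 2.26e-09), and Myod1, the myogenic factor, from 18.8 to 5.31 FPKM (limma, adjusted p = 1.35e-06). Cardiomyocyte markers summed to 166 to 169 and 174 to 175 FPKM, most of which was Gja1 (146 and 145 FPKM). Of 5 tested, 3 rose, 1 fell and 1 did not pass. The gene that fell was Nppb, from 2.15 to 0.484 FPKM (limma, adjusted p = 0.000961). Fibroblast markers summed to 239 to 246 and 270 to 282 FPKM, but of 5 tested 2 rose, 2 fell and 1 did not pass. The collagen gene Col1a1 rose from 37.6 to 69.3 FPKM (limma, adjusted p = 1.58e-06). The proteoglycan gene Dcn fell from 26.3 to 1.72 FPKM (limma, adjusted p = 9.15e-08). Macrophage markers summed to 28.9 to 30.4 and 19.5 to 21.3 FPKM, most of which was Cd14 (27.9 and 18.6 FPKM). Endothelial markers were under 1 FPKM throughout, but the labelled replicate 3 summed to 0.655 against at most 0.168 in any other library. In that library Nefl stood at 4.07 FPKM, beside 3.97 and 3.91 in the other two. In bulk RNA, fewer cells of a type and less RNA per cell cannot be told apart. The part of other cell types in the lower neuronal cytoskeleton mRNAs was not tested.

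**Figure D5:**
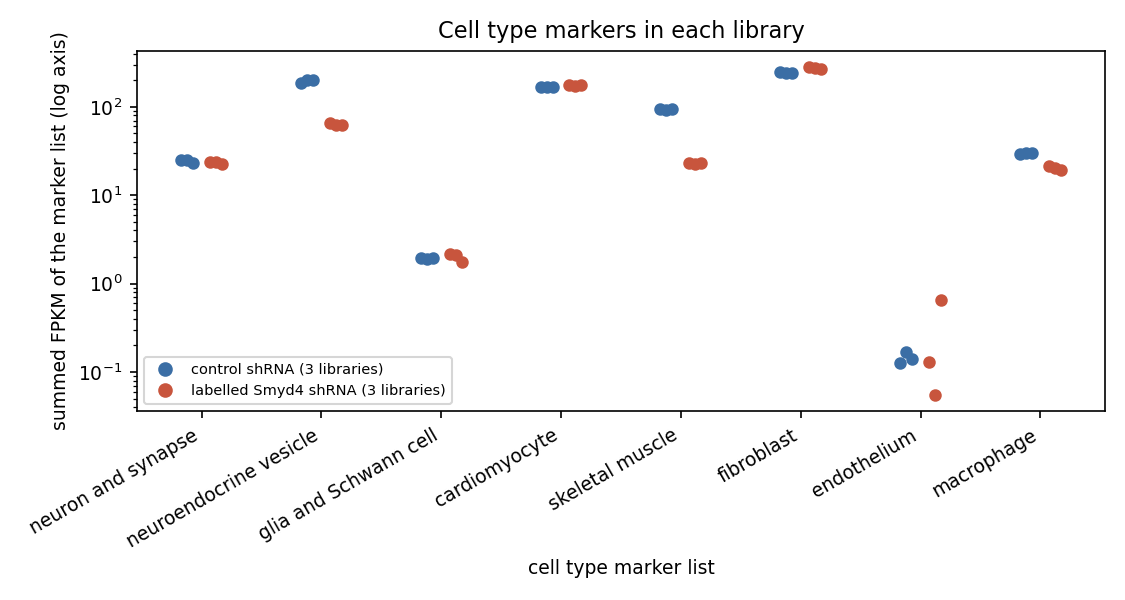
Summed FPKM (log axis) of each cell type marker list in each of the 6 libraries, with blue points for control shRNA and red points for the libraries labelled Smyd4 shRNA. The neuron and synapse sum lies between 22.8 and 25.2 in all libraries, though its tested markers moved in both directions. Vamp2 is its largest part (11.1 and 10.6 FPKM in control and labelled libraries). The skeletal muscle sum is lower in the labelled libraries, as is the neuroendocrine sum through Cck alone (135 and 2.49 FPKM).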

How the data were processed

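RNA was extracted with Trizol and libraries were made with Illumina protocols, per the labels' protocols. TopHat2 2.0.9 and Bowtie2 2.0.6 are among the tools and GRCm38 is the build, per the submitters' processing notes; the sources used here do not give the counter, annotation, strand setting or test. The authors deposited FPKM for 22246 genes, 1 column per library. Their comparison table lists 5616 genes with a deposited signal, the count divided by a size factor. The log2 fold changes and the p-values in that table are the authors' own.

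FPKM times length over signal was constant (41.6), so FPKM is scaled by those factors. All values of that table gave whole reads within 1e-04. Other genes' reads need a length, which came from the annotation for 13309 genes. For 3321 genes it was the smallest length that gives whole reads within 0.01, so wholeness is no check there and the reads are lower bounds. Values were compared as log2(FPKM + 0.5) for genes averaging 1 FPKM or more, with limma 3.58.1 (trend) in R 4.3.3 and Benjamini-Hochberg adjustment over 11325 genes at 0.05; edgeR 4.0.16 on recovered reads was an alternative and called 6824 genes. A pseudocount understates changes of low genes. Fits were also run on simulated reads in which few genes changed. That setting is unlike these data, so it checks the code and not the calls here.

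Groups and replicate numbers come from the titles and shRNA labels. Replicates differed by more than counting noise (chi-square per degree of freedom 1.71 to 3.03). The members and lists were chosen with earlier results of these data known. Up to 4 genes a list past the threshold with the smallest adjusted p were named, up to 2 per direction first, or the 2 with the highest mean where none passed; Rest is always named, as are the 3 profiles nearest to the largest fall. A gene that this rule names is not reported here.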

Additional observations from a re-analysis of the deposited data

How the results depend on the processing

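Across 13 alternatives (pseudocounts of 0.1 and 1, no filter, other scalings, edgeR, a replicate block, and each library left out) the number of genes past the threshold lay between 4536 and 6824, against 5474. Same-numbered libraries did not deviate together (correlations -0.03, 0.02 and 0.01), and limma with the number as a replicate block called 5141 genes. Leave-one-out fits gave 4536 to 4993. No difference of the 7 tested genes of the set reversed. Their ranges over all alternatives were -3.16 to -2.86 for Nefl, -3.05 to -2.53 for Nefm, -3.12 to -2.44 for Gap43, -2.06 to -2.001 for Tubb3, -2.75 to -1.50 for Stmn2, -0.37 to -0.27 for Map1b and -0.12 to -0.07 for Dpysl3. The list genes rose in 21 to 32 and fell in 45 to 66 cases. Of the single genes named, the calls of Map1a, Ncam1, Stmn1 and Tcp1 were lost in 17 combinations of gene and fit. Stmn4 and Vash1 were under the filter, so not tested, without any 1 of the 3 control libraries. Depth limits Uchl1, Nefh and Ina, which rest on 15 reads or fewer per library.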
